A study of Mus musculus with 15 samples.

Results

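The genes described here copy the genome or make the nucleotides for it: 37 listed S phase genes, chosen by function and not by their measured values. Earlier results of these data were known when the list was made. Of the 37, 36 had a probe set annotated to that gene alone, and each was read from the one with the highest mean over all 15 arrays. In all, 18193 genes had such a probe set. Of the 36 members, 35 were bright enough to be tested, among 13703 genes in all. Chaf1a was not analysed here, and the probe sets of Tyms, thymidylate synthase, lay under the filter's level on all 15 arrays. The other members passed on at least 11 arrays each, except Cdc6, which passed on all 3 M0 arrays, 1 M2 array and 1 array of 10058F4-treated M2 cells.

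Macrophages were grown from mouse bone marrow in M-CSF, the growth factor that drives both their differentiation and their division, for 7 days. M1 cells received lipopolysaccharide from E. coli with interferon-gamma. M2 cells received IL-4 and IL-13, and were studied with nutlin-3a, which blocks MDM2 and so activates p53, with 10058F4, which keeps MYC from joining its partner MAX, or with no agent. M0 cells were not treated. Each of the 5 groups had 3 samples, each on its own one-colour array. The sources used here give no strain, age, sex, dose, treatment time or vehicle. Titles number biological replicates but name no separate mice, so a p-value covers the spread among these arrays only, and that spread may be technical.

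Replication is prepared in G1 phase, when the origin recognition complex (ORC), CDC6 and CDT1 load the MCM helicase onto origins. The helicase is built of the products of Mcm2 to Mcm7. In S phase MCM10, CDC45 and the GINS complex turn the helicase on. Polymerase alpha with primase starts each strand, and the PCNA clamp, set on DNA by the clamp loader (RFC), holds the polymerases that extend it. Ribonucleotide reductase, thymidine kinase, thymidylate synthase and dUTPase set the deoxynucleotide supply. Many of these genes are known targets of E2F factors, which retinoblastoma family proteins hold in check in resting cells. Macrophages in M-CSF divide, and bacterial lipopolysaccharide and interferon-gamma are known to stop that division.

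Promoter sequence came from RefSeq on GRCm38.p6, as windows of 250 bases before to 50 after a gene's start, and 32 of the 37 members had at least 1 window. The letters TTTGGCGC or TTTCCCGC, forms of the E2F site, were found on either strand in 10 of the 32 members (31.2%), in 0 of 25 mitosis genes with a window, and in 1.8% of all 27025 genes. The 10 were Mcm3, Mcm5, Mcm6, Mcm7, Cdt1, Cdc6, Rfc3, Pold1, Pola1 and Dnmt1. The letters TTTGAA, the cell cycle homology region (CHR) known from genes of G2 and M phase, ran the other way, in 4 of 32 members (12.5%), 20 of 25 mitosis genes (80.0%) and 20.2% of all genes. CACGTG, the E-box that MYC and MAX bind, was in 12.5% of members, 8.0% of mitosis genes and 8.1% of all genes. CCAAT was in 62.5% of members, 80.0% of mitosis genes and 41.1% of all genes. None of these letter strings contains another, a match is a description and not a bound site, and the windows can miss starts used in macrophages. Mcm6, a helicase subunit, is shown for its 2 E2F matches, and was chosen after values were seen. Rrm2 had the largest fall in M1 cells and Orc1 the largest rise, Uhrf1 the largest fall with nutlin-3a and Rfc5 the largest called fall with 10058F4. Capitals mark CCAAT or its reverse complement in every sequence, and the E2F letters in Mcm6.
Mcm6, chr1:128359656-128359955, minus strand: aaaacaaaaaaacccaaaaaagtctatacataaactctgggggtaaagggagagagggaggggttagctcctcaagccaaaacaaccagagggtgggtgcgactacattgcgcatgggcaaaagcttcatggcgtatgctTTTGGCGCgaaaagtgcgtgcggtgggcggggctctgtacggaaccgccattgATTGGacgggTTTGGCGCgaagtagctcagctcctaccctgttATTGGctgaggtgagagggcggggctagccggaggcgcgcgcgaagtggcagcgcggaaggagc
Rrm2, chr12:24708004-24708303, plus strand: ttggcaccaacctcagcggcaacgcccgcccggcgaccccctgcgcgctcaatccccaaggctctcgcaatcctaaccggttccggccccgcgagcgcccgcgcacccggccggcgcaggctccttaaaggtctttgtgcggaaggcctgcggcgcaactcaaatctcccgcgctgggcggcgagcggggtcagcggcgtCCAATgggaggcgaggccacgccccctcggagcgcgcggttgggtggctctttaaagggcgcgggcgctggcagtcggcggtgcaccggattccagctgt
Uhrf1, upstream start, chr17:56303087-56303386, plus strand: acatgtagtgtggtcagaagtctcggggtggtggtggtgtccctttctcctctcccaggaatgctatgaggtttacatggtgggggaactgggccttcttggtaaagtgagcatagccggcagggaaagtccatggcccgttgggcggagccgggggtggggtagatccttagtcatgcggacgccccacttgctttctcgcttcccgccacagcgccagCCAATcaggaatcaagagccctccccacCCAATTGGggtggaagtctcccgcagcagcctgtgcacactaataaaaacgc
Uhrf1, downstream start, chr17:56304063-56304362, plus strand: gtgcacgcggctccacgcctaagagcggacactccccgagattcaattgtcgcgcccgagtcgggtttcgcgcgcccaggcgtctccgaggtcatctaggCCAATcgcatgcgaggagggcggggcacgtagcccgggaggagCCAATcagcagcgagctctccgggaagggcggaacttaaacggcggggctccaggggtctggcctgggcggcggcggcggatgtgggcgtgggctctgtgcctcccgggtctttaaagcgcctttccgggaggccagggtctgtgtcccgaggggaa
Rfc5, chr5:117388974-117389273, minus strand: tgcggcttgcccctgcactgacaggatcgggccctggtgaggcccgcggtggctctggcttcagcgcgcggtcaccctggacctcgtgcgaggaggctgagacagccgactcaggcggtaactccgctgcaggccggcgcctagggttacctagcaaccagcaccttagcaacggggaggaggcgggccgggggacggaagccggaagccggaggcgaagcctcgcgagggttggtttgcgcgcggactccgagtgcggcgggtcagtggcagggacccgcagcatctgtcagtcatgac
Orc1, chr4:108579204-108579503, plus strand: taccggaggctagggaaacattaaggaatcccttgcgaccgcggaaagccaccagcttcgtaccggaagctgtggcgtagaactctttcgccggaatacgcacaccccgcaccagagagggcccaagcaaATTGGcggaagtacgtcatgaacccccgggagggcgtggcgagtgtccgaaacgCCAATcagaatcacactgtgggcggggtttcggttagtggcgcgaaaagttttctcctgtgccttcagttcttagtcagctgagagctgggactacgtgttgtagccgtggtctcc
The E2F letters of Mcm6 begin at positions -110 and -47, counted from the start. Of the 4 motifs, the windows of Rrm2, Uhrf1 and Orc1 held CCAAT alone, and the Rfc5 window held none.

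Levels are the authors' RMA values on a log2 scale, where 1 unit is a doubling. A gene was called when its p, adjusted over all genes tested in a comparison, lay under 0.05. Levels of different genes are not compared, since each probe set has its own response. Within groups, arrays correlated with r of 0.989 to 0.997. All 11 macrophage markers tested lay above the filter's level on every array. The p53 targets Cdkn1a and Ccng1 rose with nutlin-3a by 1.70 and 1.60, as did Mdm2, by 1.99, and Myc fell by 0.96. With 10058F4 Cdkn1a fell by 0.75, while the Myc difference was 0.00. As signs of RNA quality, the 3′ minus 5′ gap of control probe sets for beta-actin averaged 0.178 ± 0.0444 in M1 cells, 0.453 ± 0.0346 with nutlin-3a, 0.489 ± 0.025 with 10058F4, 0.382 ± 0.0302 in M2 cells and 0.351 ± 0.0543 in M0 cells (SD, n = 3 each). For Gapdh the same gap was -0.162 ± 0.0347 in M1 cells and lay between -0.284 and -0.272 in the other groups, so M1 cells were lowest for actin and highest for Gapdh. Their part in the results was not tested.

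Markers of other cells also differed between groups. In M1 against M0 cells the genes called higher were 4 of 4 tested for T and NK cells, 3 of 3 for mast cells and basophils, 3 of 5 for B cells, 3 of 6 for dendritic cells, 2 of 7 for stromal cells, 5 of 9 for neutrophils and their precursors and 1 of 4 for megakaryocytes. Called lower were 2 of 9 neutrophil and 2 of 4 megakaryocyte genes, and neither erythroid gene tested was called. Over all genes tested in this comparison 33.6% were called higher and 39.1% lower. The 40th percentile was itself higher on M1 arrays, at 4.466 to 4.5165, than on M0 arrays, at 4.336 to 4.385. The mean level of the T and NK list was 4.59 to 4.62 on M1 arrays, against 4.17 to 4.27 on M0 arrays, and 3 of its 7 genes were under the filter's level on every M1 array and 4 on every M0 array. It was 5.09 to 5.40 on M1 arrays, against 4.38 to 4.59 on M0 arrays, for the dendritic list, and 6.37 to 6.61 on M1 arrays, against 6.87 to 7.27 on M0 arrays, for the megakaryocyte list. In M2 against M0 cells 3 B cell, 1 T and NK, 1 mast cell and 1 neutrophil gene were called higher and 2 neutrophil genes lower. Over all genes tested there 12.7% were called higher and 18.4% lower. Against M2 cells, 2 of 5 B cell genes and 1 of 3 mast cell genes were called lower with nutlin-3a and likewise with 10058F4, which also had 1 of 2 erythroid genes higher. Over all genes tested 5.85% were called lower with nutlin-3a, and 10.2% lower and 10.6% higher with 10058F4. The mean level of the B cell list was 4.54 to 4.56 with nutlin-3a and 4.48 to 4.65 with 10058F4, against 4.73 to 4.86 in M2 cells. The part of such markers in the results was not tested.

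The replication genes stood highest in M0 cells and lowest in M1 cells. Of the 35 members tested, 31 had their highest group mean in M0 cells, 2 in M2 cells, 1 with nutlin-3a and 1 in M1 cells. The lowest mean fell in M1 cells for 22 members, with nutlin-3a for 9 and with 10058F4 for 4. The order M1 below nutlin-3a below M2 below M0 held for 19 members. Averaged over the 35 members, the level was 6.28, 6.25 and 6.27 on the M1 arrays, 6.85, 7.06 and 6.91 on the nutlin-3a arrays, 7.19, 7.40 and 7.18 on the 10058F4 arrays, 7.30, 7.52 and 7.36 on the M2 arrays and 7.29, 8.24 and 7.84 on the M0 arrays. M1 and nutlin-3a arrays each formed a band of their own, while 10058F4 and M2 arrays overlapped and the M0 arrays spread over nearly 1 log2 unit.

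**Figure D1:**
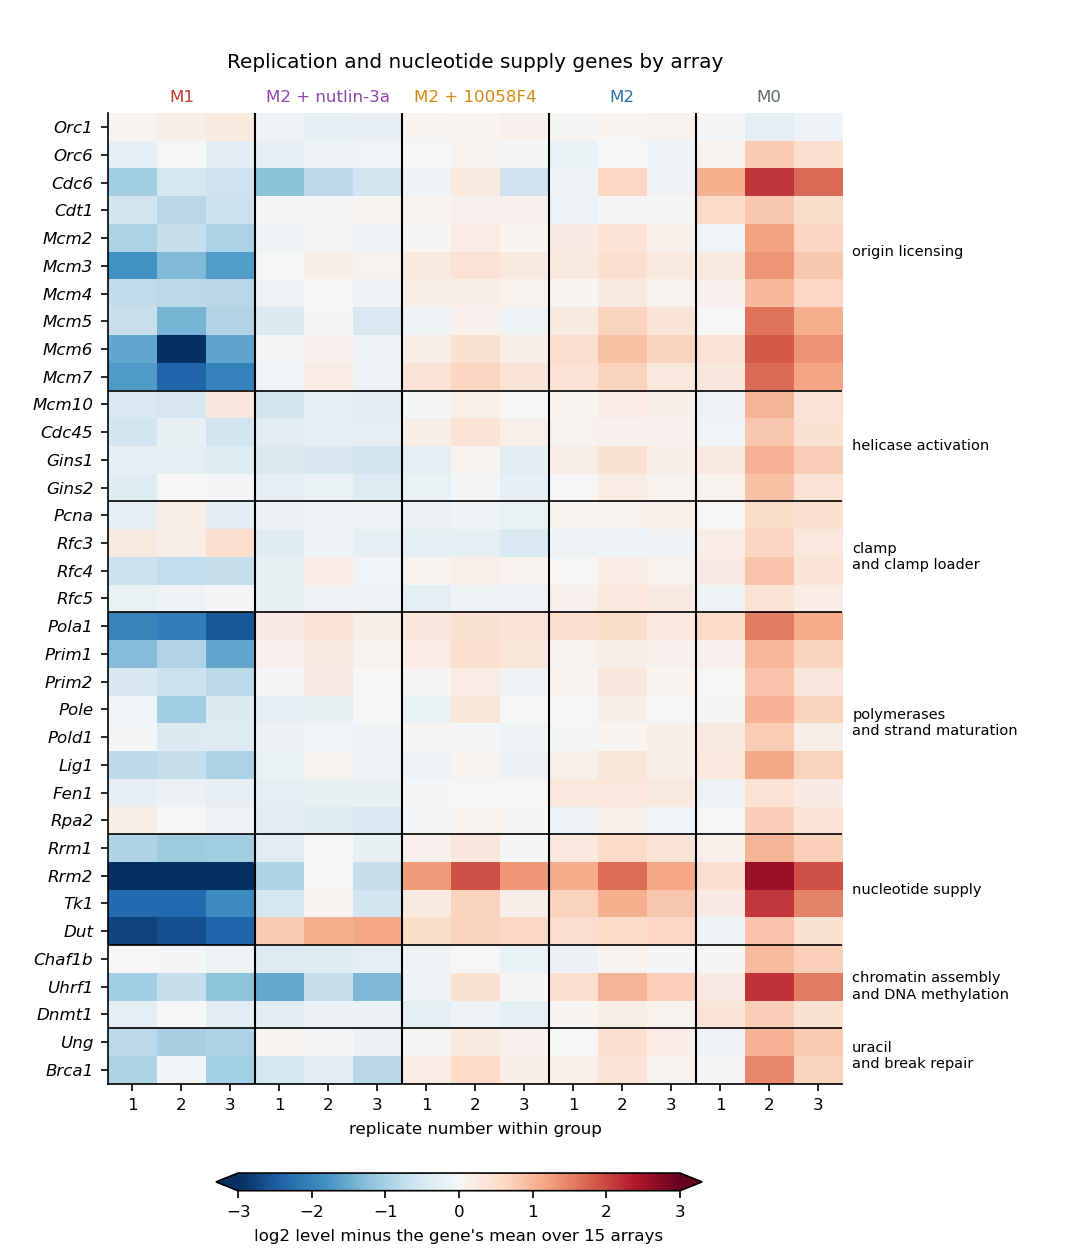
Level of each of 35 members (rows, by role) on each of 15 arrays (columns, 3 per group), as log2 minus the gene's mean over all arrays, blue for lower and red for higher, with the scale ending at 3 either way. The M1 columns are blue for nearly all helicase, polymerase and nucleotide genes, Orc1 and Rfc3 run against that, and M0 replicate 2 is the reddest column.

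M0 replicate 1 stood apart for these genes. It had the lowest value of the 3 M0 arrays for 32 of 35 members, and M0 replicate 2 had the highest for 34. For Rrm2, the small subunit of ribonucleotide reductase, the M0 arrays read 7.53, 9.58 and 8.95. The median SD among M0 arrays was 0.449 for the members and 0.721 for 29 mitosis genes, against 0.094 for all genes tested. In the other 4 groups the members' median SD was 0.11 to 0.18. Replicate 2 was also the highest for 29 members in M2 cells, 30 with 10058F4 and 23 with nutlin-3a, but for 13 in M1 cells. Over all genes tested it was the highest for 31.7% in M2 cells and 39.2% in M0 cells. Every comparison with M0 cells is therefore also given without single M0 arrays where that moved its count.

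**Figure D2:**
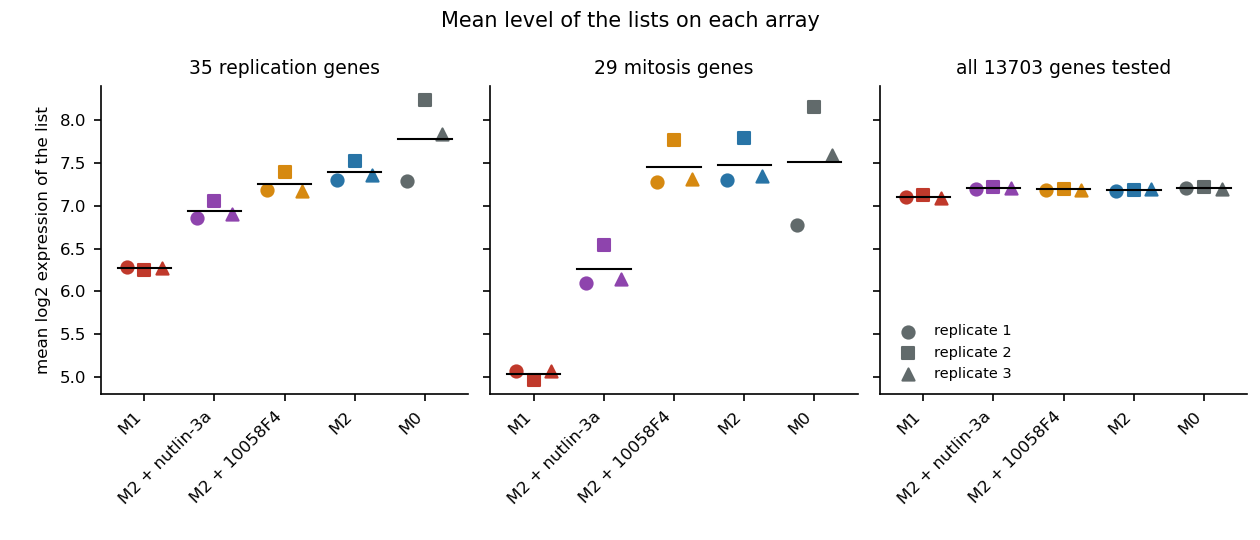
Mean log2 level over the 35 replication genes (left), 29 mitosis genes (middle) and all 13703 genes tested (right) on each array, by group (x axis). Circles, squares and triangles are replicates 1, 2 and 3 and lines are group means. Replicate 2 is the highest in the replication panel in every group but M1, and the M0 arrays span 7.29 to 8.24 there while the means over all genes are level.

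M1 cells had less RNA of nearly all the members tested than M0 cells. Of 35 members 33 were called lower and 1 higher, where 39.1% of all genes tested were called lower and 33.6% higher. The members' median difference was -1.34, against -0.005 over all genes. This median was -1.03 without M0 replicate 2, -1.07 with the mean of all probe sets and -1.12 after repeated quantile normalization. Groups did not overlap for 29 of the lower members, where 38.4% of all genes were so separated downward. In bulk RNA, fewer cells in S phase and less of these RNAs in each cell cannot be told apart.

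The nucleotide supply genes moved most, with a median difference of -3.23 over 4 tested members, all called lower. Rrm2 read 2.94, 2.88 and 3.45 on the M1 arrays, against 7.53, 9.58 and 8.95 on the M0 arrays. The groups lay far apart, with a difference of -5.60 (SE 0.40, adjusted p = 1.5e-08). All 3 M1 values were below the array's 40th percentile, the level used to filter low values, so the fitted 48.3-fold is not an exact size. Tk1, cytosolic thymidine kinase, which salvages thymidine, read 4.11, 4.09 and 4.51 on the M1 arrays, against 6.67, 8.56 and 7.93 on the M0 arrays, a difference of -3.48 (adjusted p = 5.18e-07). Dut, the dUTPase that keeps uracil out of DNA, read 4.32, 4.44 and 4.67 in M1 cells, against 6.94, 7.92 and 7.51 in M0 cells (-2.98, adjusted p = 2.77e-09). Neither gene's groups overlapped, and both lay above that percentile on 1 of 3 M1 arrays. On other probe sets the M1 against M0 difference was -4.64 and -2.46 for Rrm2 and -0.75 for Dut. Rrm1, the large reductase subunit, averaged 7.22 ± 0.08 in M1 cells and 8.86 ± 0.45 in M0 cells (SD, n = 3 each), a difference of -1.64. Tyms, listed with these genes, was too low in every group to be tested.

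Among origin licensing genes 9 of 10 were called lower. The 6 helicase subunits all fell, but unequally. Mcm6 read 6.26, 4.44 and 6.22 on the M1 arrays, against 8.23, 9.64 and 9.15 on the M0 arrays. M1 replicate 2 was the low array, under the 40th percentile, and the groups did not overlap (-3.37, SE 0.40, adjusted p = 3.57e-06). Mcm7 read 6.57, 5.86 and 6.25 in M1 cells, against 8.60, 9.98 and 9.44 in M0 cells, a difference of -3.11 (adjusted p = 9.15e-08). The difference was -2.41 for Mcm3, -1.90 for Mcm5, -1.46 for Mcm2 and -1.38 for Mcm4, although the proteins form 1 ring. Cdc6, which loads the ring, differed by -2.36, with all 3 M1 arrays under the 40th percentile, and its partner Cdt1 by -1.34. Without its M0 arrays Cdc6 would not have passed the filter, so its fall from M0 cells is a description and not support, and 32 members were lower apart from it. Orc6, a subunit of ORC, differed by -0.65.

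Orc1, the largest ORC subunit, was the 1 member called higher in M1 cells. It read 5.48, 5.57 and 5.70 on the M1 arrays, against 5.37, 5.14 and 5.30 on the M0 arrays. The groups did not overlap, and the difference was small at 0.31 (95% interval 0.15 to 0.48, adjusted p = 0.00222). With the mean of all Orc1 probe sets it was -0.07 and not called, the other probe set having a mean level of 3.56. Orc1 read little above the array median, which was 4.92 to 4.96 on M0 arrays and 4.99 to 5.02 on M1 arrays. In the same comparison all 4 T and NK cell markers tested, also low, were called higher, by 0.34 to 0.59. Whether the higher low end of the M1 arrays has a part in the Orc1 rise was not tested.

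All 8 members for polymerases and strand maturation fell. Pola1, the catalytic subunit of polymerase alpha, read 4.32, 4.25 and 3.79 on the M1 arrays, all under the 40th percentile, against 6.91, 7.88 and 7.45 on the M0 arrays (-3.29, SE 0.19, adjusted p = 1.51e-09). The difference was -1.84 for Prim1, the catalytic primase subunit, and -1.03 for its partner Prim2. Lig1, the ligase that joins Okazaki fragments, fell by 1.52. Pole and Pold1, the catalytic subunits of the main replicative polymerases, differed by -1.06 and -0.69, with M1 replicate 2 under the 40th percentile for Pole. Fen1, the flap nuclease, differed by -0.40 on the probe set used and by -1.74 on its other one. Rpa2, of the complex that coats single-stranded DNA, differed by -0.37, its arrays overlapped, and repeated quantile normalization gave -0.03, not called.

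The 4 helicase activation genes were all called lower, with differences of -0.99 for Gins1, -0.86 for Cdc45, -0.63 for Mcm10 and -0.60 for Gins2. The M1 and M0 arrays overlapped for Mcm10. With the mean of all probe sets Mcm10 turned to 0.01 and Cdc45 was -0.19, neither called, and Gins2 was -0.25 and not called after repeated quantile normalization. In the clamp group the difference was -1.20 for Rfc4, a clamp loader subunit, -0.50 for Pcna and -0.29 for Rfc5, the M1 and M0 arrays overlapping for the last pair. Pcna averaged 12.15 ± 0.27 in M1 cells and 12.65 ± 0.29 in M0 cells (SD, n = 3 each). Rfc5 turned to 0.05, not called, when quantile normalization was repeated. Rfc3, also a clamp loader subunit, was the 1 member not called (-0.06, 95% interval -0.29 to 0.17), and probe sets ending in _at alone gave 0.37, called higher.

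Among the remaining members Uhrf1, which brings the methyltransferase DNMT1 to newly copied DNA, fell by 2.31, with 2 of 3 M1 arrays under the filter's level, and Dnmt1 fell by 0.72. Chaf1b, a subunit of the chromatin assembly factor CAF-1, fell by 0.63. Ung, the glycosylase that cuts uracil out of DNA, fell by 1.48, and Brca1, which acts in homologous recombination, fell by 1.35. With the mean of all probe sets Chaf1b was -0.195 and Brca1 -0.35, neither called. Leaving out single arrays gave 30 to 33 lower members, and the calls of Mcm10, Rfc5 and Rpa2 were each lost without M0 replicate 2 and in 3 other such fits.

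**Figure D3:**
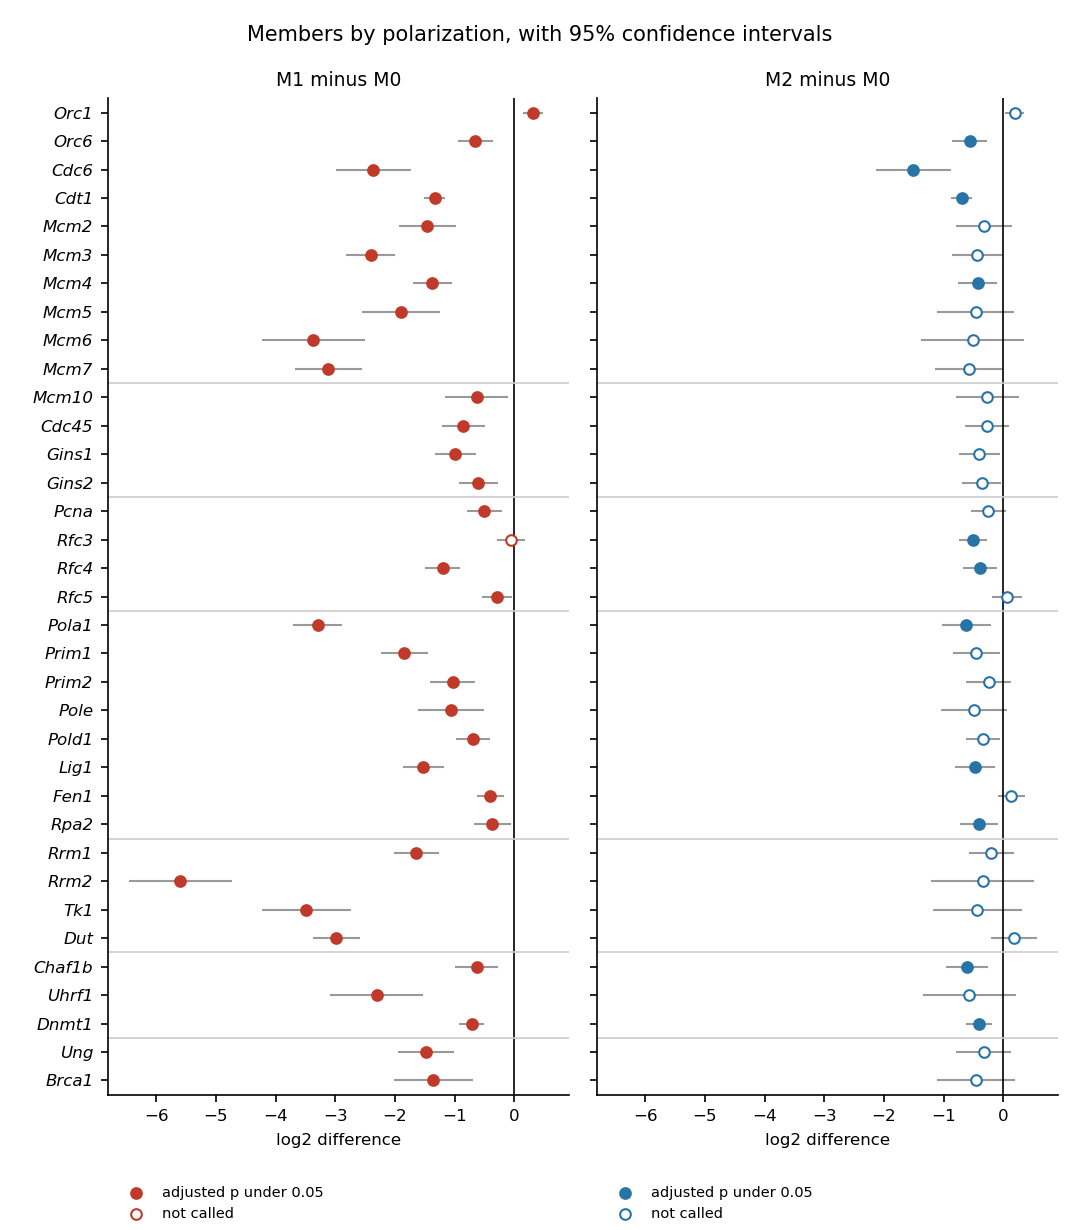
Log2 difference (x axis) of each of 35 members in M1 cells minus M0 cells (left) and in M2 cells minus M0 cells (right), with bars for the 95% confidence interval of the fit over all 15 arrays. Filled points have an adjusted p under 0.05. Left, 33 filled points lie below 0, with Rrm2 farthest at -5.60; right, 11 do, with Cdc6, which passed the filter only through its M0 arrays, farthest at -1.51.

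Related genes outside the list split in M1 cells. Of 35 other replisome genes 22 were called lower and 9 higher than in M0 cells, with a median difference of -0.49. The difference was -2.29 for Pole2, a subunit of polymerase epsilon, -2.28 for Clspn, the checkpoint mediator claspin, -2.11 for Dna2, a flap nuclease, and -1.73 for Topbp1, which helps start helicase activation. Of 29 other nucleotide metabolism genes tested, 23 were lower and 3 higher. Those 3 were Cmpk2, a mitochondrial nucleotide kinase induced by interferon, up by 4.48, Samhd1, which breaks down deoxynucleotides, up by 2.32, and Dck, deoxycytidine kinase, up by 1.15 and named after its value was seen. Adss, of adenine nucleotide synthesis, and Slc29a1, a nucleoside transporter, differed by -2.17 and -1.86. Samhd1 averaged 12.93 ± 0.05 in M1 cells and 10.61 ± 0.13 in M0 cells (SD, n = 3 each). Of 19 checkpoint, chaperone and repair genes tested, 15 fell and 1, the histone chaperone Asf1a, rose by 1.81. Among them the chromatin remodeller Hells fell by 2.92, and the checkpoint kinases Chek1 and Atr differed by -2.32 and -1.93. Of 17 E2F and retinoblastoma family genes, 10 fell and 4 rose, with a difference of -2.94 for the E2F partner Tfdp2, while Rbl1, whose product p107 restrains E2F, rose by 2.02.

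Fewer members were lower in M2 cells. Against M0 cells 11 members were called lower and 0 higher by limma (1 higher at an unadjusted p under 0.05), where 18.4% of all genes tested were called lower and 12.7% higher. The median difference was -0.41, against -0.004 over all genes, and it was -0.66 without M0 replicate 1 and -0.16 without M0 replicate 2. The 11 held 4 of 10 licensing genes, Cdc6, Cdt1, Orc6 and Mcm4, as well as Rfc3, Rfc4, Pola1, Lig1, Rpa2, Chaf1b and Dnmt1. Cdc6 read 4.22, 4.99 and 4.25 on the M2 arrays, 2 of them under the 40th percentile, against 5.44, 6.50 and 6.06 on the M0 arrays, a difference of -1.51. It passed the filter only through those M0 arrays, so its call is not support, and 10 members were lower apart from it. Cdt1 read 9.88, 9.99 and 10.08 in M2 cells, against 10.63, 10.85 and 10.58 in M0 cells (-0.70, SE 0.08, adjusted p = 2.31e-05). For neither loader did the groups overlap.

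The groups were also separated for Pola1, Orc6, Rfc3 and Dnmt1, and overlapped for Chaf1b (-0.61). Pola1 read 6.84, 6.89 and 6.65 on the M2 arrays, against 6.91, 7.88 and 7.45 on the M0 arrays (-0.62, adjusted p = 0.0241). Orc6 read 6.95, 7.16 and 7.02 in M2 cells, against 7.25, 7.93 and 7.65 in M0 cells (-0.56, adjusted p = 0.00628). No M2 array reached an M0 array for either gene. Rfc3 read 7.21, 7.25 and 7.27 in M2 cells, against 7.59, 7.998 and 7.67 in M0 cells (-0.51, adjusted p = 0.0026). Dnmt1, which restores DNA methylation after replication, read 8.61, 8.75 and 8.67 in M2 cells, against 8.93, 9.29 and 9.02 in M0 cells (-0.41, adjusted p = 0.00669). For all 4 genes M0 replicate 1 was the M0 array nearest to M2 cells.

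With all arrays, 0 of the 4 nucleotide supply genes tested were called in M2 cells by limma (0 also at an unadjusted p under 0.05). Rrm2 differed by -0.34 (95% interval -1.20 to 0.52) and Tk1 by -0.43 (95% interval -1.18 to 0.31), while Dut differed by 0.18 (95% interval -0.21 to 0.57). This rested on M0 replicate 1, without which Rrm2 (-0.92), Tk1 (-0.96) and Rrm1 (-0.45) were called lower, with adjusted p of 0.0357, 0.00853 and 0.0285 by limma. A missed threshold does not show equal levels. Of 29 mitosis genes, 28 were called lower in M1 than in M0 cells, and 0 were called in either direction in M2 against M0 cells by limma (1 higher and 1 lower at an unadjusted p under 0.05), with a median difference of -0.06. The mean of that list was 6.78, 8.16 and 7.60 on the M0 arrays and 7.30, 7.79 and 7.35 on the M2 arrays. M0 replicate 1 thus lay below every M2 array, and counts of mitosis genes without it are not given. The members' count moved with single arrays: it was 27 without M0 replicate 1, where 15.5% of all genes were lower, 5 without M0 replicate 2 (14.1% of all genes), and 5 and 6 without M2 replicates 1 and 3. It was 5 with the 6 arrays alone (18.7% of all genes) and 15 with the replicate number as a block (19.9% of all genes), which added Mcm3, Gins1, Gins2 and Prim1. The fit over all arrays pooled the spread of every group. The members' median SD was 0.45 in M0 cells but lay between 0.11 and 0.18 in the others. Of the 6 fits that leave out 1 array, Pola1, Mcm4, Lig1 and Rpa2 each lost their call in 4, Rfc4 in 3 and Chaf1b in 2.

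Between the polarized states, 26 members were called lower and 1 higher in M1 cells than in M2 cells, where 36.5% of all genes tested were called lower and 28.1% higher. The median difference was -0.81. Rrm2 read 2.94, 2.88 and 3.45 on the M1 arrays, against 8.15, 8.70 and 8.19 on the M2 arrays (-5.25, adjusted p = 2.99e-08). Dut read 4.32, 4.44 and 4.67 in M1 cells, against 7.58, 7.63 and 7.70 in M2 cells (-3.16, adjusted p = 1.42e-09). Tk1 read 4.11, 4.09 and 4.51 in M1 cells, against 7.13, 7.49 and 7.24 in M2 cells (-3.05, adjusted p = 2.17e-06). These groups lay far apart, and the M2 arrays lacked the spread of the M0 arrays. On other probe sets the M1 against M2 difference was -4.02 and -2.05 for Rrm2 and -0.78 for Dut. Mcm6 fell by 2.85, with M1 arrays at 6.26, 4.44 and 6.22 and M2 arrays at 8.32, 8.68 and 8.46. Pola1 fell by 2.67, with M1 arrays at 4.32, 4.25 and 3.79 and M2 arrays at 6.84, 6.89 and 6.65. Mcm7 fell by 2.53, with M1 arrays at 6.57, 5.86 and 6.25 and M2 arrays at 8.71, 8.97 and 8.59. No M1 array reached an M2 array for any of the 3.

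Rfc3 ran against the rest. It read 7.64, 7.56 and 7.87 on the M1 arrays, against 7.21, 7.25 and 7.27 on the M2 arrays, with no overlap (0.45, adjusted p = 0.0023). The 8 members not called were Orc1, Orc6, Mcm10, Gins2, Pcna, Pole, Rpa2 and Chaf1b. Chaf1b and Orc6, which were lower than M0 cells in both states, differed between M1 and M2 cells by -0.03 (95% interval -0.38 to 0.33) and -0.09 (95% interval -0.38 to 0.21). Outside the list, Mcm9, a helicase paralogue that acts in repair, was higher in M1 than in M2 cells by 1.88, Asf1a by 1.98 and Rbl1 by 2.24. Most called genes of their lists were lower there. Of 35 other replisome genes 6 were called higher and 17 lower. Of 19 checkpoint, chaperone and repair genes 2 were higher and 12 lower, and of 17 E2F and retinoblastoma family genes 2 and 7. Without single arrays the count of lower members was 21 to 26.

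**Figure D4:**
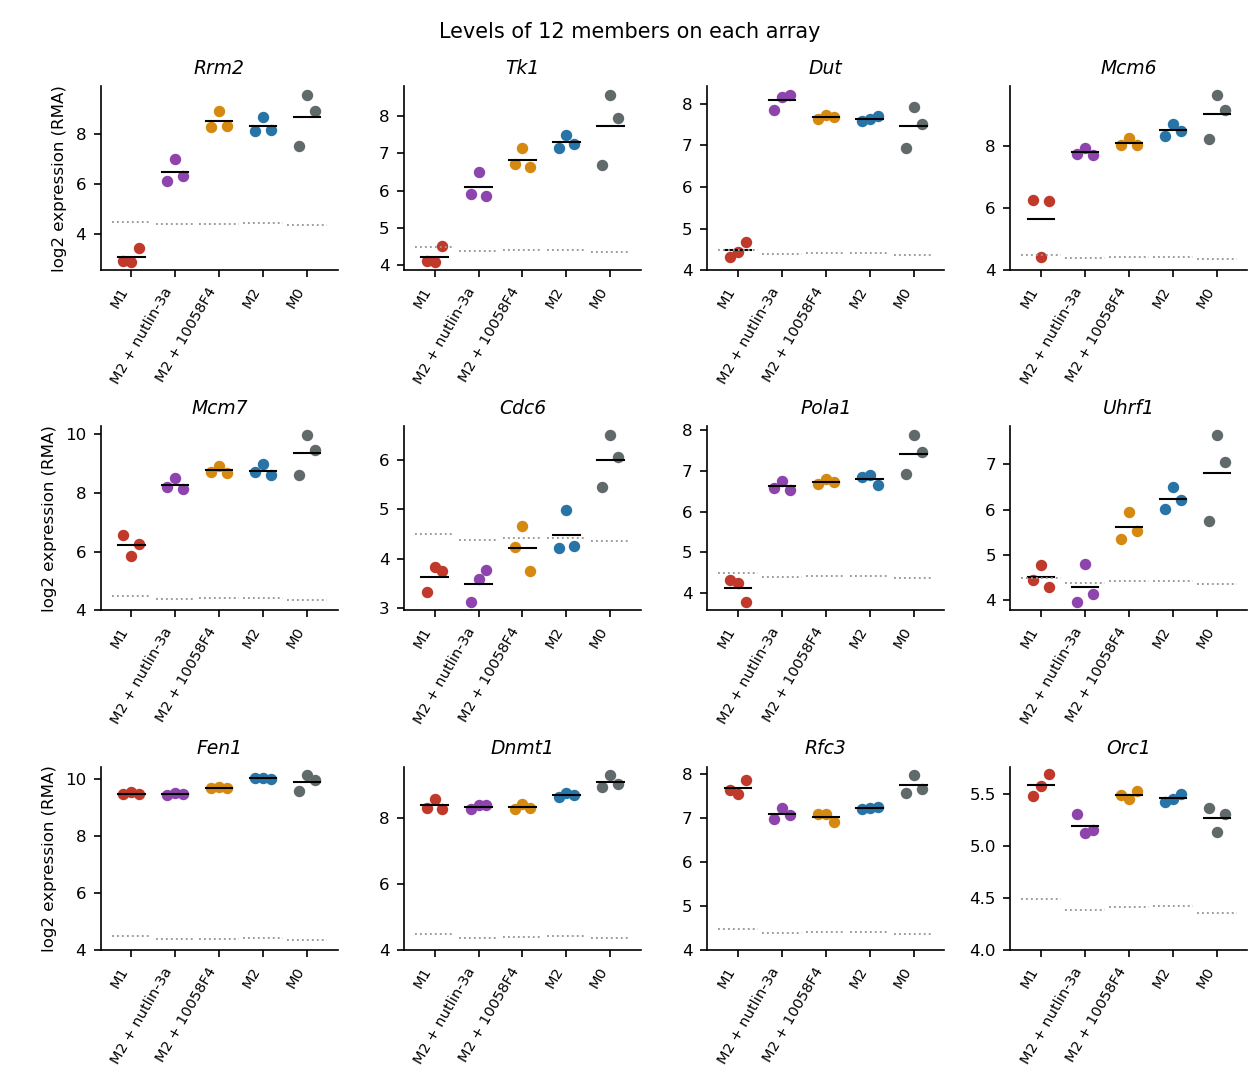
Log2 expression (y axis, own scale per panel) of 12 members on each array by group (x axis), with points for arrays, solid lines for group means and dotted lines for the mean 40th percentile of the group's arrays. Rrm2, Pola1 and Cdc6 lie under the dotted line in M1 cells, Rrm2 and Uhrf1 step down with nutlin-3a and not or less with 10058F4, and Dut does not fall with nutlin-3a.

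In M2 cells nutlin-3a lowered 3 of the 4 nucleotide supply genes tested, both DNA methylation genes and 5 members of other roles, though 6 of these 10 calls were lost when single arrays were left out. Of 35 members 10 were called lower and 0 higher by limma (1 higher, Dut, at an unadjusted p under 0.05), where 5.85% of all genes tested were called lower and 9.56% higher. The median difference was -0.34, against 0.009 over all genes. The nutlin-3a mean lay below the M2 mean for 32 members, and the arrays did not overlap for 25 of them, where 17% of all genes were so separated downward.

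Uhrf1 read 3.96, 4.79 and 4.13 on the nutlin-3a arrays, against 6.02, 6.51 and 6.21 on the M2 arrays. The groups did not overlap, and 2 of 3 treated arrays were under the 40th percentile (-1.95, SE 0.37, adjusted p = 0.00269). Its partner Dnmt1 fell by 0.34. Rrm2 read 6.11, 7.02 and 6.31 with nutlin-3a, against 8.15, 8.70 and 8.19 in M2 cells (-1.86, SE 0.40, adjusted p = 0.00656). Both groups were above the filter's level on all arrays, and Rrm2 was 3.64-fold lower with nutlin-3a. Rrm1, the other reductase subunit, read 7.91, 8.25 and 8.01 with nutlin-3a, against 8.54, 8.81 and 8.62 in M2 cells (-0.60, adjusted p = 0.0342). Tk1 read 5.90, 6.51 and 5.86 with nutlin-3a, against 7.13, 7.49 and 7.24 in M2 cells (-1.20, adjusted p = 0.0315). The groups did not overlap for either gene.

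Dut did not follow them. It read 7.85, 8.16 and 8.22 with nutlin-3a, against 7.58, 7.63 and 7.70 in M2 cells. All treated arrays were above all M2 arrays, and the difference of 0.44 was not called (adjusted p = 0.127). Rrm2b, which encodes a reductase subunit that p53 is known to induce and that serves resting cells, is no member and rose by 0.45 with nutlin-3a (7.76 ± 0.07 with nutlin-3a and 7.32 ± 0.09 in M2 cells, SD, n = 3 each, adjusted p = 0.00056). It rose by 0.36 with 10058F4 too.

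In licensing, Cdc6 read 3.13, 3.59 and 3.77 with nutlin-3a, against 4.22, 4.99 and 4.25 in M2 cells (-0.99, adjusted p = 0.0346), but all treated arrays and 2 of 3 M2 arrays were under the 40th percentile. Orc1 fell by 0.26. None of the 6 helicase subunits was called, with differences from -0.24 for Mcm4 to -0.75 for Mcm5. The groups did not overlap for any of the 6. The fit over all arrays pooled the spread of every group. For Mcm6 the SD was 0.12 with nutlin-3a and 0.18 in M2 cells, but 1.04 in M1 cells and 0.72 in M0 cells, and the SE was 0.40. With the 6 arrays alone Mcm2, Mcm5, Mcm6 and Mcm7 were called lower, and Mcm3 and Mcm4 were not called. Cdt1, at 0.04 (95% interval -0.14 to 0.22), and Orc6, at -0.06, were near 0. Gins1, a subunit of the helicase activator GINS, read 5.30, 5.26 and 5.14 with nutlin-3a, against 5.94, 6.18 and 5.93 in M2 cells, with no overlap (-0.79, adjusted p = 0.00447). Fen1 fell by 0.54 and Rfc5 fell by 0.39. The primase genes Prim1 and Prim2, at 0.02 and -0.08, were not called.

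The calls of Uhrf1, Rrm2, Gins1 and Fen1 held whichever of the 6 arrays was left out. Dnmt1 lost its call in all 6 of these fits, Tk1, Rrm1, Cdc6, Rfc5 and Orc1 in 5 each, and the count was 4 to 6. Calls over all genes in either direction fell too, to between 1243 and 1555, against 2112 with all arrays. With the mean of all probe sets Gins1 was -0.37 and Rrm1 -0.34, neither called. The other probe sets of Uhrf1 (-0.87) and Fen1 (-0.49) were not called when tested on their own. With the 6 arrays alone the count was 21, adding Mcm2, Mcm5, Mcm6, Mcm7, Mcm10, Cdc45, Gins2, Pcna, Rpa2, Chaf1b and Brca1, with Dut called higher, where 7.47% of all genes were called lower. With the replicate block it was 12 (7.39% of all genes), adding Gins2 and Brca1.

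**Figure D5:**
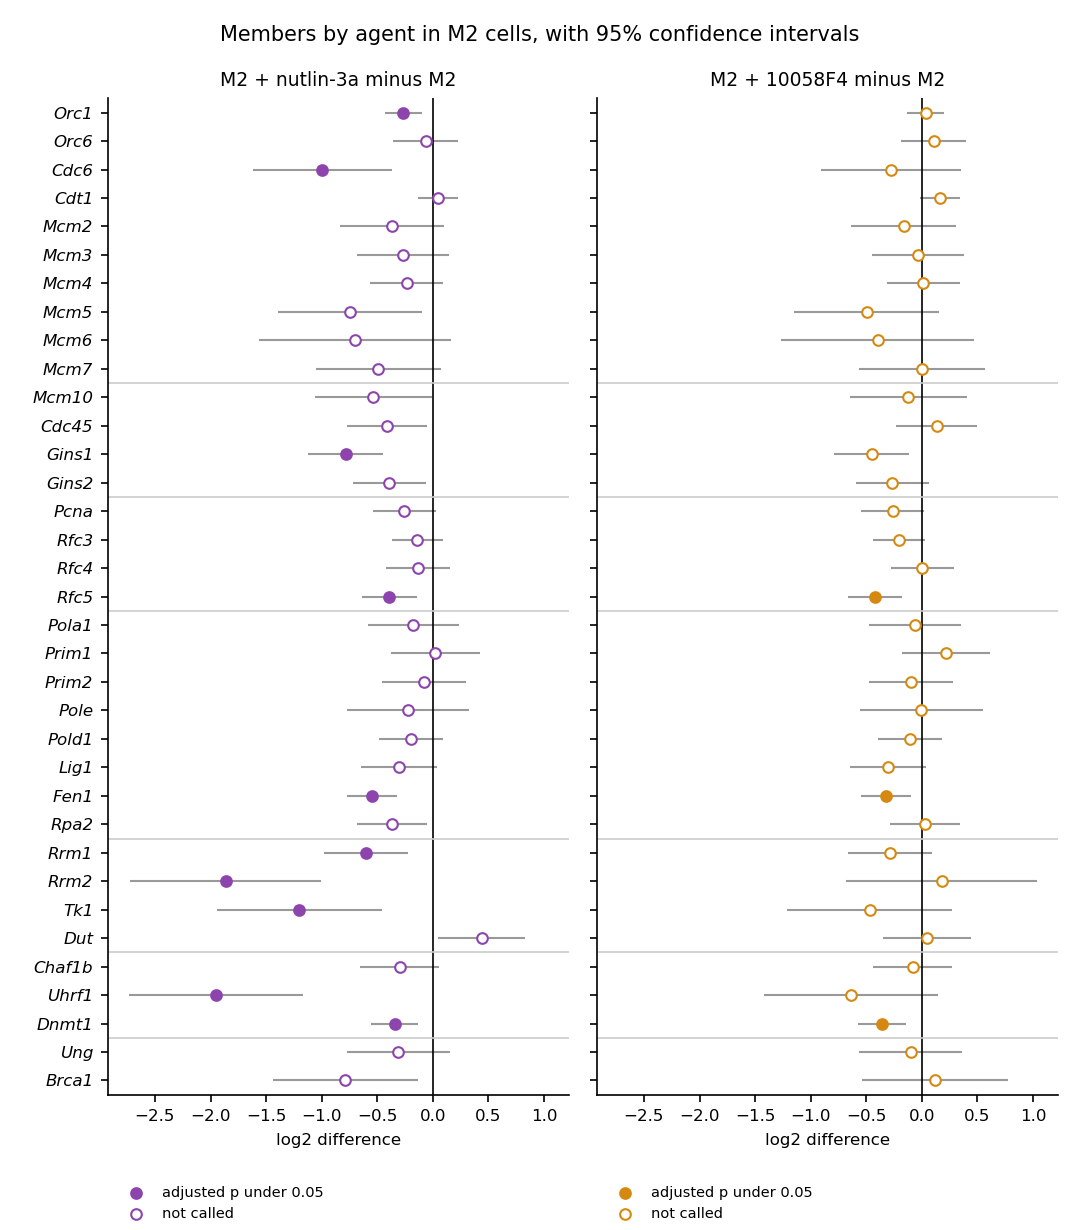
Log2 difference (x axis) of each of 35 members in nutlin-3a-treated minus untreated M2 cells (left) and in 10058F4-treated minus untreated M2 cells (right), with bars for the 95% confidence interval of the fit over all 15 arrays. Filled points have an adjusted p under 0.05: 10 on the left, led by Uhrf1 and Rrm2, and 3 on the right, Rfc5, Dnmt1 and Fen1. The panels share the M2 arrays.

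Of 29 mitosis genes 25 were called lower with nutlin-3a and 0 higher by limma (0 also at an unadjusted p under 0.05), with a median difference of -1.16. Among them Ccna2, cyclin A2, fell by 2.07 and Anln, which acts at the cleavage furrow, fell by 1.98. Of 35 other replisome genes 5 fell and 1 rose, Orc5, an ORC subunit, by 0.53. The difference was -1.27 for Clspn, -0.74 for Timeless, of the fork protection complex, and -0.49 for Pole2. The chromatin remodeller Hells, known as a partner of UHRF1, fell by 0.85. Msh6, of mismatch repair, rose by 0.86. In the E2F family the difference was -1.31 for E2f7 and -1.18 for E2f8, both repressors, and -0.71 for Rbl1, while Rb1 rose by 0.61.

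With 10058F4 few members moved. Against M2 cells 3 were called lower and 0 higher by limma (0 higher also at an unadjusted p under 0.05), where 10.2% of all genes tested were called lower and 10.6% higher, so the members' share was close to that of all genes. The members' median difference was -0.10, and single arrays moved it: it was -0.17 without M2 replicate 1 or 10058F4 replicate 2, -0.05 without 10058F4 replicate 3 and -0.02 without M2 replicate 2. Rfc5 read 7.10, 7.27 and 7.28 on the 10058F4 arrays, against 7.53, 7.71 and 7.67 on the M2 arrays (-0.42, SE 0.11, adjusted p = 0.0169). Dnmt1 read 8.26, 8.41 and 8.28 with 10058F4, against 8.61, 8.75 and 8.67 in M2 cells (-0.36, adjusted p = 0.0198). Fen1 read 9.68, 9.73 and 9.70 with 10058F4, against 10.03, 10.05 and 10.01 in M2 cells (-0.33, adjusted p = 0.0409). All 3 were small shifts between groups that did not overlap, and all 3 genes were also called lower with nutlin-3a, against the same M2 arrays.

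Rrm2 read 8.31, 8.93 and 8.33 with 10058F4, against 8.15, 8.70 and 8.19 in M2 cells, and the groups overlapped (0.18, 95% interval -0.68 to 1.04). Uhrf1 differed by -0.64 (95% interval -1.42 to 0.15) and Tk1 by -0.47 (95% interval -1.21 to 0.28), neither called. The difference was 0.00 for Mcm7 (95% interval -0.56 to 0.57) and 0.01 for Rfc4 (95% interval -0.28 to 0.29). Among other genes Dbf4, the activator of the CDC7 kinase that fires origins, rose by 0.70, Wdhd1, which ties the helicase to polymerase alpha, by 0.64 and Nasp, a histone chaperone, by 0.34. Of 35 other replisome genes 2 were called higher and 1 lower, and of 29 other nucleotide metabolism genes 3 and 2. Of 19 checkpoint, chaperone and repair genes 2 were called higher and 0 lower. Over all genes tested 10.6% were called higher and 10.2% lower. Of the mitosis genes 0 were called in either direction by limma (1 higher and 0 lower at an unadjusted p under 0.05). With the 6 arrays alone 11 members were lower, adding Mcm5, Mcm6, Gins1, Gins2, Pcna, Lig1, Tk1 and Uhrf1, where 13.2% of all genes were. The count was 0 without 10058F4 replicate 1 or M2 replicate 2 or 3, 1 without 10058F4 replicate 3, and 4 with the replicate block (11.8% of all genes), which added Gins1.

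Set against each other in M2 cells, nutlin-3a left 3 members lower than 10058F4 did and 0 higher by limma (0 higher also at an unadjusted p under 0.05), where 2.72% of all genes tested were called lower and 4.24% higher. Rrm2 differed by -2.04 (SE 0.40, adjusted p = 0.00597), with nutlin-3a arrays at 6.11, 7.02 and 6.31 and 10058F4 arrays at 8.31, 8.93 and 8.33. Uhrf1 differed by -1.31 (SE 0.37, adjusted p = 0.0452), with nutlin-3a arrays at 3.96, 4.79 and 4.13 and 10058F4 arrays at 5.35, 5.95 and 5.53. Orc1 differed by -0.30 (SE 0.08, adjusted p = 0.0297), with nutlin-3a arrays at 5.31, 5.12 and 5.15 and 10058F4 arrays at 5.49, 5.46 and 5.53. The groups did not overlap for any of the 3. Doses of the agents are not given, so the values do not rank them.

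The 3 genes called lower with 10058F4 were not called between the agents. The difference was 0.03 for Rfc5 (95% interval -0.21 to 0.28), 0.01 for Dnmt1 (95% interval -0.20 to 0.23) and -0.22 for Fen1 (95% interval -0.44 to 0.01). Of 29 mitosis genes 18 were called lower with nutlin-3a than with 10058F4. With the replicate block 6 members were lower with nutlin-3a, adding Cdc6, Cdc45 and Brca1, where 3.58% of all genes were. With the 6 arrays alone 10 were (4.44% of all genes), and leaving out single arrays gave 1 or 2, with 1 without nutlin-3a replicate 3 or any 10058F4 array.

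Members that hold the E2F letters ranged from -3.37 to -0.06 in M1 against M0 cells and from -0.99 to 0.04 with nutlin-3a against M2 cells. Members whose windows lack them ranged from -5.60 to 0.31 and from -1.95 to 0.44. These are the extremes of 10 and of 20 genes, and extremes cannot show whether the sets differ, which was not tested. The -0.99 is that of Cdc6, which passed the filter only through its M0 arrays. The members' differences in M1 against M0 cells and with nutlin-3a against M2 cells, which share no array, correlated across 35 genes with Spearman's rho of 0.25 and Pearson's r of 0.48, against a rho of -0.21 across all genes tested. Genes are not independent replicates, and the members share the cell cycle. Of the 36 members with a probe set, 28 had several. Of 32 other probe sets tested, 25 were called the same way in M1 against M0 cells as the one used and 3 the opposite way, those of Mcm10, Cdc45 and Prim2. The opposite ones were low, with mean levels of 4.55, 5.59 and 5.23 and differences of 0.37, 0.48 and 0.27. With nutlin-3a against M2 cells 3 of the 32 were called the same way, and 4 were not called where the one used was. These 4 belong to Uhrf1 (-0.87), Fen1 (-0.49), Rrm1 (-0.55) and Dnmt1 (-0.23).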

How the data were processed

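Expression was measured in 15 samples of mouse bone marrow macrophages, 3 in each of 5 groups taken from the sample titles. Per the labels' protocols, biotin-labelled cRNA was made from total RNA. The authors deposited log2 values for each probe set, and RMA is named in the submitters' processing notes. RMA sets the probe intensities of all arrays to 1 distribution, so a shift of most genes could be hidden. The probe set values still differed between arrays, with a 40th percentile of 4.336 to 4.385 on M0 arrays and 4.466 to 4.5165 on M1 arrays. Base 2 was inferred from the range of values; no RMA version is stated in the sources. With arrays, the number of replicates limits the precision.

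Of 45101 probe sets, 64 were controls, 34945 named 1 gene, 932 several and 9160 none. Symbols were updated through the RefSeq table of GRCm38.p6, in which 34741 gene IDs were found. Of 18193 genes, 13703 exceeded the 40th percentile of at least 3 arrays and were tested. Each comparison was a limma contrast (lmFit, eBayes) between means of the 5 groups, fitted to 15 arrays together (10 residual degrees of freedom), with Benjamini-Hochberg adjustment within a comparison. The test was checked on simulated data.

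Members and lists were chosen with earlier results of these data known. All members could be named. Values per array are given for the up to 6 largest rises or falls among called members whose groups did not overlap in a comparison, and for others where a sentence turns on them. Of the other lists, up to 4 called genes with the largest difference were named per comparison, and others as stated.

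Replicate numbers recur in all groups, with no statement of what they mark. Across genes, deviations from the group means of same-numbered arrays correlated at r from 0.23 to 0.42 in the 4 comparisons made without M1. These pass the 0.1 required of a pairing, and a fit with the number as a block is reported beside them. With M1 some pairs did not, the lowest r being 0.055.

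Alternatives were repeated quantile normalization, centring on the median, no filter, a filter at the median on 6 arrays, the mean of all probe sets, probe sets ending in _at alone, a fit to the 6 arrays compared, eBayes with trend and robust settings, array weights, a replicate block, and leaving out each array. R 4.3.3, limma 3.58.1, Python 3.11.15, pandas 2.3.3 and matplotlib 3.10.9 were used.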

Additional observations from a re-analysis of the deposited data

How the results depend on the processing

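The loss in M1 cells held under every alternative run: 26 to 33 members were called lower than M0 cells and 21 to 26 lower than M2 cells, the lowest of each range included, with 30 to 33 and 21 to 26 when single arrays were left out. The 26 came from probe sets ending in _at alone, where 29 members were tested. With the mean of all probe sets 29 of 35 were lower than M0 cells. Against M0 cells the count of higher members was 0 with the mean of all probe sets and 2 with probe sets ending in _at alone. Directions turned for Rfc5 (0.051 after repeated quantile normalization), Orc1 (-0.069) and Mcm10 (0.013) with the mean of all probe sets, and Mcm10 (0.30) and Rfc3 (0.37) with probe sets ending in _at alone. In the smaller comparisons the counts moved. Members lower in M2 than in M0 cells numbered 11, 7 after repeated quantile normalization, 5 with 6 arrays alone and 5 to 27 without single arrays. Members lower with nutlin-3a than in M2 cells numbered 10, 21 with 6 arrays alone and 4 to 6 without single arrays, and 1, Dut, was higher with 6 arrays alone or array weights. With 10058F4 the count was 3, 1 with probe sets ending in _at alone, 11 with 6 arrays alone, 5 with array weights and 0 to 3 without single arrays. Between the agents it was 3, 10 with 6 arrays alone, 1 with trended and robust eBayes, 6 with array weights, 6 with the replicate block and 1 to 2 without single arrays, and 1, Dut, was higher with the mean of all probe sets, probe sets ending in _at alone or 6 arrays alone. The replicate block changed no other count by over 1.5 times. In the other comparisons no member turned direction with a call on either side. Whether values under the 40th percentile exceed background is unknown. That limits the sizes for Rrm2, Pola1, Cdc6, Uhrf1, Tk1, Dut, Mcm6 and Pole in M1 cells. It also limits those for Uhrf1 with nutlin-3a and for Cdc6 in M2 cells with or without either agent. The causes were not tested.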

Other observations

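Tpx2, which builds the mitotic spindle, was the 1 of 29 mitosis genes called higher in M1 cells, and was singled out after its value was seen. It averaged 9.45 ± 0.35 in M1 cells and 6.70 ± 0.61 in M0 cells (SD, n = 3 each), a difference of 2.75 (limma, adjusted p = 7.03e-07), while the difference was -4.25 for Ube2c, -3.98 for Ccnb2, -3.92 for Mki67 and -3.82 for Birc5. The other 3 Tpx2 probe sets were also called higher, by 0.61, 0.68 and 0.86. Against M2 cells it was higher in M1 cells by 2.79.

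In M2 cells against M0 cells, Cmpk2 fell by 1.95 and Dna2 fell by 1.55, while Dck rose by 0.79 and Atic, of purine synthesis, by 0.64. Myc was higher in M2 cells than in M0 cells by 0.84 and differed by -0.77 in M1 cells against M0 cells. Cdkn1a, which encodes the CDK inhibitor p21, was higher than in M0 cells by 2.27 in M1 cells and by 1.35 in M2 cells.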
